A study of Mus musculus with 8 samples.

Results

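Interferon-stimulated genes were examined in retinal RNA-seq of 4 Rbfox2 KD and 4 control mice. The list holds 42 genes named by symbol, chosen as familiar targets of interferon signaling, with earlier results of these data known. Of these, 41 had a row among the 17500 genes of the count table and all 41 passed the filter on low counts, which kept 16797 genes. The remaining gene, Ifit3b, was not analysed here.

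Interferons are secreted proteins that cells release when they sense foreign or misplaced nucleic acid. Type I interferons bind the receptor pair Ifnar1 and Ifnar2, whose kinases activate transcription factors of the complex ISGF3, Stat2 and Irf9 among its parts, which binds a promoter element called the interferon-stimulated response element. Interferon gamma acts on a different element, the gamma-activated site. In the retina, as in other neural tissue, a low level of many of the target genes is present without infection, and microglia, vascular cells, glia and neurons can all respond.

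All 8 mice were on the C57BL/6J background and 6 months old, and each gave 1 poly(A)-selected library of the whole retina. The Rbfox2 KD mice (M893, M901, M902 and M909) were Rbfox2 fl/fl animals with a tamoxifen-dependent Cre that acts in nearly every cell type, so that the loss of Rbfox2 was not limited to the retina. The controls (M833, M894, M896 and M898) were described as heterozygous Rbfox2 fl/+ mice of the same age. The study's methods place tamoxifen 4 months before collection in the KD mice, while the labels give 4 months of tamoxifen for every mouse, controls included. The methods also name a corn oil vehicle and individual housing of mice given tamoxifen. Whether the controls carried Cre, and how they were housed, was not given in the sources used here. Loss of Rbfox2 therefore cannot be told apart from Cre activity, nor from tamoxifen or housing if these differed.

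The target of the deletion behaved as labelled. Rbfox2 was at 144 to 157 CPM (counts of a gene relative to the library size, scaled by the TMM method of edgeR) in the controls and at 53.6 to 59.4 CPM in the KD mice, a log2 fold change of −1.41 ± 0.05 (SE, n = 4 per group; edgeR quasi-likelihood test, Benjamini-Hochberg adjusted p = 5.51e-07). About 0.377 of the control level of reads over the whole gene therefore remained. The deletion removes only some exons, so that the share of intact Rbfox2 transcript was not measured. Total counts ranged from 160630226 to 211283591 per mouse, so that 3 counts corresponded to 0.0142 to 0.0187 CPM, and no member had fewer than 18 counts in any mouse. The summed level of 9 photoreceptor markers was 60590 to 68579 CPM in the 8 mice, which fits the label of whole retina. Each library came from a different animal.

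Several libraries stood apart. M901 and M902, both Rbfox2 KD, had Xist, the RNA that marks an inactive X chromosome, at 1440 and 1739 CPM, while the other 6 mice were at 1.71 to 2.22 CPM. No control had Xist at that level, so that in these 2 mice sex and genotype cannot be told apart. M901 and M902 were also low in part of the markers of several cell types. Their 12 microglia markers summed to 72.3 and 68.1 CPM, against 79.0 to 87.3 CPM in the controls and 81.2 and 85.2 CPM in M893 and M909. Their 10 Müller glia and astrocyte markers summed to 5571 and 5527 CPM, against 6014 to 6896 CPM in the other 6 mice. Not all of these markers were low. Apoe, Dkk3 and Vim lay below the other 6 mice in both M901 and M902. Glul, Rlbp1, Slc1a3, Aqp4 and S100b lay within the range of the other mice, and Gfap and Pax2 shared no direction. In bulk RNA, fewer cells of a type and less RNA per cell cannot be told apart. M896, a control, was high in the genes described below. M909, a KD mouse, had 5 lens and surface epithelium markers at a sum of 38.6 CPM, against 1.88 to 5.14 CPM in the others. M833, a control, was the lowest mouse in the ganglion cell markers Rbpms, Slc17a6, Pou4f1 and Nefl. Nefl was at 288 CPM in M833 and at 375 to 487 CPM in the others. The amacrine markers Tfap2a and Tfap2b were instead highest in M833. The main counts are given with and without M896, M901 and M902, and as ranges for each mouse left out in turn.

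Promoter sequence is shown first, as a description of the genes. The list was chosen as familiar targets of interferon signaling, so that the share with the response element is not independent of that choice. RefSeq promoter windows of 300 bases (250 before and 50 after the start, GRCm38.p6) matched 33 of the 41 members, and Usp18, Oas2, Zbp1, Rtp4, Ifi27, Dhx58, Parp9 and Parp14 had none. The core of the interferon-stimulated response element was searched on both strands as GAAA, any 2 bases and GAAA again. It was in the windows of 16 of these 33 members (48.5%), against 433 of 12287 tested genes with a window (3.52%) and 3.44% of all 32851 windows. The 16 were Ifit1, Ifit3, Isg15, Oas1a, Rsad2, Bst2, Ifitm3, Ddx58, Ifih1, Stat2, Gbp2, Gbp3, Gbp7, Igtp, Irgm1 and B2m. The gamma-activated site, searched as TTC, any 3 bases and GAA, was in 7 of 33 (21.2%), against 8.4% of tested genes. Copies of both motifs can overlap each other, as can copies of the same motif. With 1 mismatch allowed in the fixed letters of the response element, 26 of 33 members held it, against 32.4% of tested genes. A match of letters is a description and not a bound site.

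Stretches upstream of the start are printed 5′ to 3′ on the strand of the gene for 5 members described below with values of every mouse. These hold an exact copy of the searched letters, and H2-K1 is printed as a member of the same kind without an exact copy. A stretch without an exact copy can still hold a variant of the element. Capitals mark the response element, read as GAAA, 2 bases and GAAA or, when it lies on the opposite strand, as TTTC, 2 bases and TTTC. The stretches lie outside annotated exons, at chr19:34640744-34640870 (+) for Ifit1, chr19:34583329-34583528 (+) for Ifit3, chr5:120907526-120907725 (−) for Oas1a, chr3:142530136-142530335 (+) for Gbp7, chr2:122147487-122147685 (+) for B2m and chr17:34000348-34000547 (−) for H2-K1.
Ifit1: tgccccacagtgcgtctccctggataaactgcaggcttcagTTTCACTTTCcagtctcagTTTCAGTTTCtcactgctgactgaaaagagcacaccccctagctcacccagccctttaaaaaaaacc
Ifit3: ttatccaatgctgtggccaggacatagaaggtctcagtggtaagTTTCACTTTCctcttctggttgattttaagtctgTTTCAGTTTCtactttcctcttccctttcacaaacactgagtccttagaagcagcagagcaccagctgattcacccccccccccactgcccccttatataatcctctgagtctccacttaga
Oas1a: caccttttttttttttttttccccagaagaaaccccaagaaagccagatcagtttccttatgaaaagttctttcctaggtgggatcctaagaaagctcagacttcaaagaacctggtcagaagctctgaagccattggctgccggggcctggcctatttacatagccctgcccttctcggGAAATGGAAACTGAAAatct
Gbp7: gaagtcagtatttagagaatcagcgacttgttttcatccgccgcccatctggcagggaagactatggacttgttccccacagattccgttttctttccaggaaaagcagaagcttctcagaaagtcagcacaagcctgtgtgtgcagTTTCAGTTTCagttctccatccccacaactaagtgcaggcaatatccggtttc
B2m: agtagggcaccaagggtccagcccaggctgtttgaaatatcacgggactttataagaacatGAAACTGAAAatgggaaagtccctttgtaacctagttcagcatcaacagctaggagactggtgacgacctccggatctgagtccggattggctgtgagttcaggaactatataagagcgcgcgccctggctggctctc
H2-K1: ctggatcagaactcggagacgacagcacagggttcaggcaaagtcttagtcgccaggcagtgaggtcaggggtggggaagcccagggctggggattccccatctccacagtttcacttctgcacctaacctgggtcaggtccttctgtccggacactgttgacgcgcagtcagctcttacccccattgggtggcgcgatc
Distances are counted from the RefSeq start. For Ifit1 and B2m the printed stretch stops short of that start, where an annotated exon begins. Ifit1 held 2 copies, whose first bases lay 104 and 85 bases before the RefSeq start, and Ifit3 held 2, at 156 and 122 bases. Oas1a held 2 overlapping copies at 20 and 14 bases, while Gbp7 and B2m held 1 each, at 53 and 139 bases.

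Several members are neighbors in the genome (GRCm38, the assembly that mm10 names, with GENCODE M21 gene models). Ifit2, Ifit3 and Ifit1 lie in this order on chromosome 19, at chr19:34550694-34576419, chr19:34583531-34588731 and chr19:34640871-34650009. Psmb9 (chr17:34181987-34187764), Tap1 (chr17:34187553-34197225) and Psmb8 (chr17:34197721-34201454) adjoin each other in the major histocompatibility region that also holds H2-K1 (chr17:33996017-34000347) and H2-D1. B2m lies at chr2:122147686-122153083, Irf7 at chr7:141262706-141266481 and Usp18 at chr6:121245906-121270917.

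Most members were lower in the Rbfox2 KD retinas, but none passed the test adjusted over all genes. The comparison asks whether the retinal transcriptome differs between the genotypes. By the edgeR quasi-likelihood test, 11 of 16797 genes (0.0655%) had a Benjamini-Hochberg adjusted p below 0.05 and 0 of the 41 members did, the lowest adjusted p among members being 0.169 for B2m. At an unadjusted p below 0.05, 27 of 41 members (65.9%) were lower and 0 were higher, against 6.87% and 6.42% of all genes tested. At an unadjusted p below 0.01, 8 members were lower, against 1.93% of all genes. DESeq2 called 6 members lower at an adjusted p below 0.05 (Ifit1, Usp18, Rtp4, Irf7, Tap1 and B2m), against 1.36% of all genes. By limma-voom, 0 members were lower at an adjusted p below 0.05, against 0.0298% of all genes, and 23 were lower at an unadjusted p below 0.05, against 6.72% of all genes.

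The direction was shared across the list. The fitted log2 fold change was below 0 in 39 of 41 members, against 49.3% of all genes, and the exceptions were Stat2 (0.0030) and H2-D1 (0.016). The median log2 fold change was −0.43 over the members and 0.0016 over all genes tested. In 10 members the 4 KD mice all lay below the 4 controls (Ifit1, Ifit3, Usp18, Oas1a, Rtp4, Irf7, Gbp7, Tap1, B2m and H2-K1), against 3.39% of all genes. No member had all KD mice above all controls. By role, the members lower at an unadjusted p below 0.05 were 2 of 3 Ifit genes, 2 of 2 genes of the ISG15 system, 1 of 3 Oas genes, 7 of 11 other antiviral effectors, 2 of 4 RNA sensors, 1 of 3 transcription factors, 3 of 3 genes around Parp9 and Dtx3l, 3 of 5 GTPases and 6 of 7 antigen presentation genes. For Usp18, Gbp7 and H2-K1 the gap between the groups was narrow and closed with upper quartile normalization, while Isg15 came to have groups that did not overlap, which left 8 such members.

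**Figure D1:**
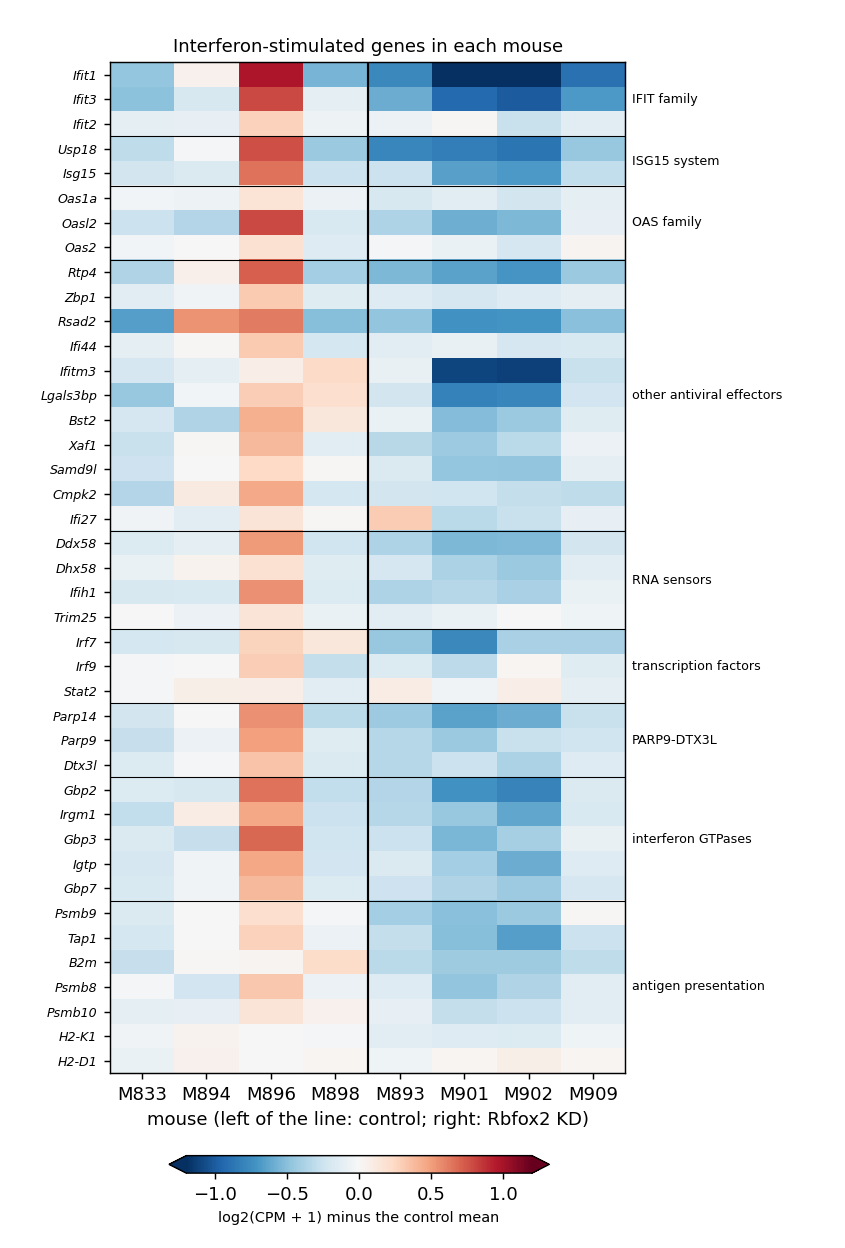
Each row is a member and each column a mouse, with color giving log2(CPM + 1) minus the mean of the 4 controls. The M896 column is red in nearly every row (highest of 8 mice in 35 of 41 members), and the M901 and M902 columns are the bluest (both lowest in 26).

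The score of each mouse, the mean over the 41 members of log2(CPM + 1) less the mean of the controls, was −0.20, −0.05, 0.38 and −0.13 in M833, M894, M896 and M898 among the controls. It was −0.26, −0.45, −0.45 and −0.21 in M893, M901, M902 and M909 among the KD mice. M896 stood far above the other 3 controls, M901 and M902 were the lowest, and M909 lay just under M833, at −0.208 against −0.201. The mean difference, KD minus control, was −0.34, with an SD of 0.26 among controls and 0.13 among KD mice. Since the score sums genes of a chosen list, no p is given for it.

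The difference shrank when M896, or M901 and M902, were left out. Without M896 the score difference was −0.22, the median log2 fold change was −0.26 and 11 members were lower at an unadjusted p below 0.05, against 5.2% of all genes. Those 11 were Ifit1, Ifit3, Usp18, Rtp4, Ddx58, Irf7, Parp14, Gbp7, Tap1, B2m and H2-K1. Without M901 and M902 the score difference was −0.24, the median was −0.30 and 5 members (Ifit1, Ifit3, Usp18, Irf7 and B2m) were lower at that threshold, against 2.46% of all genes. Without all 3 libraries, an alternative chosen after seeing the data that leaves 3 controls and 2 KD mice, 4 members (Ifit1, Ifit3, Irf7 and B2m) were lower, against 1.53% of all genes. The score difference was then −0.11, the median was −0.13 and 35 of 41 fold changes were below 0.

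**Figure D2:**
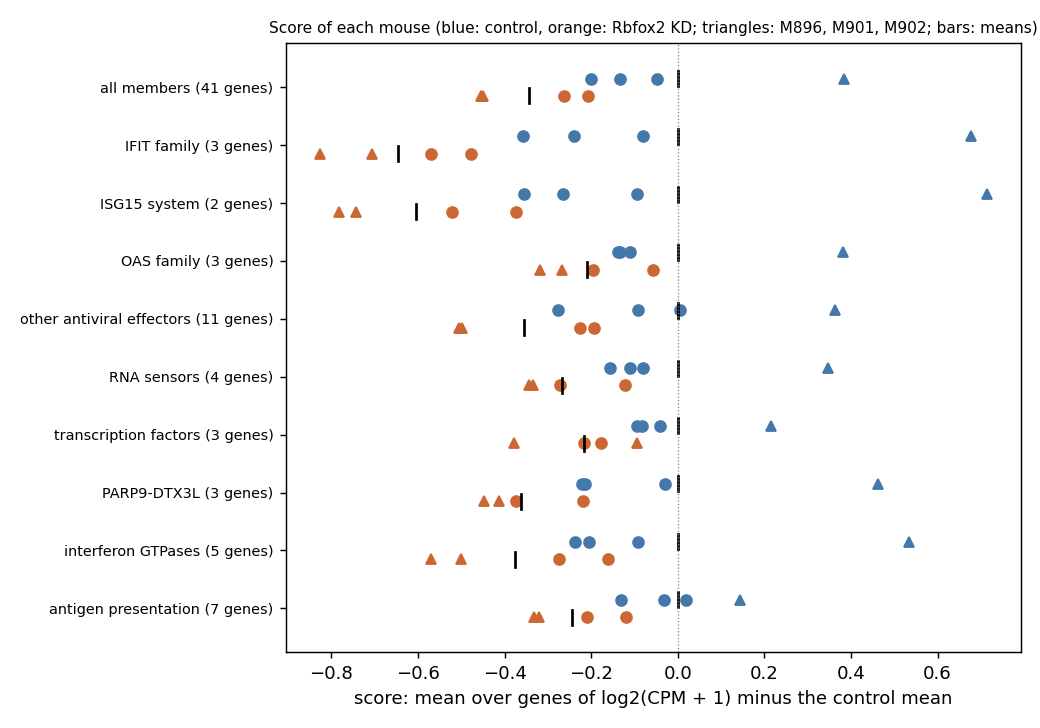
Each point is the score of a mouse, the mean over the genes named at the left of log2(CPM + 1) minus the control mean, with controls in blue, Rbfox2 KD mice in orange, triangles for M896, M901 and M902, and bars for group means. The triangle of M896 lies at 0.38 for all members, apart from the other controls at −0.20 to −0.05, and the KD mice span −0.45 to −0.21.

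The members varied from mouse to mouse more than most genes did. Their median coefficient of variation was 26.8% among controls and 15.1% among KD mice, against 6.51% and 6.65% over all genes tested. M896 was the highest of the 8 mice in 35 of 41 members, while it was the highest in 9.07% of all genes. Its level was above the mean of the other 3 controls in all 41 members, with a median ratio of 1.56 and a range from 1.01 (H2-D1) to 3.28 (Zbp1). M894 was also raised in part of the list, since M894 and M896 were the top pair in 19 members and in 3.85% of all genes. At the other end, M901 and M902 were the lowest pair in 26 members and in 9.35% of all genes.

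The mean of M893 and M909, the KD mice with Xist at the level of the controls, was below the control median in 38 of 41 members, against 49.7% of all genes. Over the 8 mice, a member's log2(CPM + 1) correlated with the mean of the other members at a median Pearson r of 0.92, and 23 of 41 had an r above 0.9. With the genotype means removed the median r was 0.87. The highest r was that of Gbp7 (0.99), and the lowest were those of Stat2 (0.19) and H2-D1 (−0.09). These correlations are descriptions over 8 mice that share library and depth within each point.

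**Figure D3:**
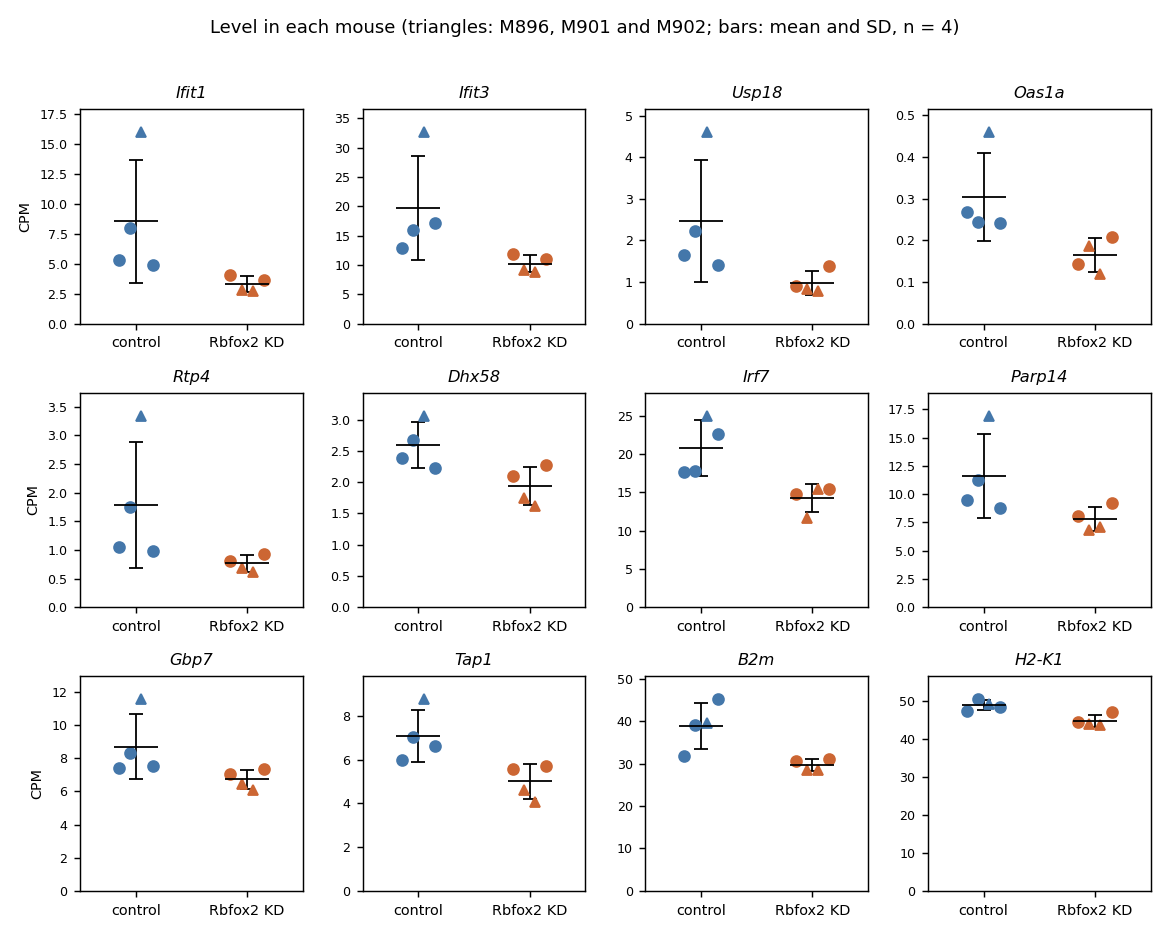
Each panel gives the CPM of a member in the 8 mice, controls in blue and Rbfox2 KD mice in orange, with triangles for M896, M901 and M902 and bars for the mean and SD (n = 4 per group). In 10 of the 12 panels every KD mouse lies below every control, Dhx58 and Parp14 being the exceptions, and in 10 panels M896 is the highest mouse.

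The Ifit genes encode tetratricopeptide proteins that bind foreign RNA and block its translation. In what follows, values of mice are given in the order M833, M894, M896 and M898 for controls and M893, M901, M902 and M909 for KD mice. Ifit1 was at 5.30, 8.0, 16.0 and 4.92 CPM in the controls and at 4.10, 2.79, 2.74 and 3.67 CPM in the KD mice. Every KD mouse lay below every control, and M896 was at 2.64 times the mean of the other controls. The log2 fold change of Ifit1 was −1.36 ± 0.35 (SE; edgeR quasi-likelihood adjusted p = 0.190), and −0.87 without M896. Ifit3 was at 12.9, 16.0, 32.6 and 17.1 CPM in the controls and at 11.9, 9.19, 8.75 and 11.1 CPM in the KD mice. The groups did not overlap, again with M896 far above the rest. Its log2 fold change was −0.94 ± 0.25 (edgeR quasi-likelihood adjusted p = 0.216), and −0.58 without M896. Ifit3 shared 31.7% of its 100-base transcript windows with Ifit3b, so that reads of the pair could be split or lost in counting. Ifit2 had overlapping groups and a log2 fold change of −0.13 ± 0.10 (adjusted p = 0.615).

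Isg15 is a ubiquitin-like protein joined to other proteins during the interferon response, and Usp18 removes it and also dampens signaling at Ifnar2. Usp18 was at 1.65, 2.23, 4.60 and 1.40 CPM in the controls and at 0.898, 0.840, 0.782 and 1.40 CPM in the KD mice. The highest KD mouse, M909, and the lowest control, M898, were nearly level. Usp18 had a log2 fold change of −1.33 ± 0.36 (edgeR quasi-likelihood adjusted p = 0.216), and −0.84 without M896. Isg15 had a log2 fold change of −0.88 ± 0.33 (adjusted p = 0.320), with overlapping groups and M896 at 2.41 times the mean of the other controls. Without M896, M901 and M902 it was −0.10.

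The Oas genes encode sensors of double-stranded RNA that make the messenger activating RNase L. Oas1a was at 0.269, 0.243, 0.460 and 0.243 CPM in the controls and at 0.142, 0.187, 0.120 and 0.208 CPM in the KD mice. All KD mice lay below all controls at this low level. Its log2 fold change was −0.88 ± 0.29 (edgeR quasi-likelihood adjusted p = 0.273). Oas1a shared 40.9% of its transcript windows with Oas1g, so that its counts are uncertain. Oasl2 had a log2 fold change of −0.49 ± 0.25 (adjusted p = 0.424), which was 0.040 without M896, M901 and M902. Oas2 had −0.32 ± 0.35 (adjusted p = 0.734).

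Among 11 other antiviral effectors, 7 were lower at an unadjusted p below 0.05 and all 11 fold changes were below 0. Rtp4, a chaperone of receptors that also limits viral replication, was at 1.05, 1.75, 3.34 and 0.988 CPM in the controls and at 0.813, 0.690, 0.618 and 0.938 CPM in the KD mice. The groups did not overlap, although M898 and M909 were close. Rtp4 had a log2 fold change of −1.22 ± 0.37 (edgeR quasi-likelihood adjusted p = 0.239), and −0.72 without M896. The 6 others with p below 0.05 ranged from −1.06 for Zbp1, a sensor of Z-form nucleic acid, to −0.36 for Samd9l, which restricts translation. Between them lay Rsad2 (viperin, which makes a chain-ending nucleotide) at −1.01, Ifitm3 (which blocks viral entry at the endosome) at −0.66, Lgals3bp (a secreted galectin-binding protein) at −0.53 and Xaf1 (a partner of the apoptosis inhibitor Xiap) at −0.40.

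Within this group the mice were not alike. Rsad2 was high in M894 and M896, at 5.03 and 5.38 CPM, and at 1.5 to 1.98 CPM in the other 6 mice. Ifitm3 was instead set apart by M901 and M902, at 3.43 and 3.35 CPM, while the other 6 mice were at 6.89 to 10.2 CPM. Its fold change was −0.64 without M896 and −0.21 without M901 and M902. Bst2 (tetherin, which holds budding virus at the membrane), Cmpk2 (a mitochondrial nucleotide kinase), Ifi44 and Ifi27 did not reach an unadjusted p of 0.05, with log2 fold changes of −0.43, −0.31, −0.79 and −0.09.

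The RNA sensors Ddx58 (RIG-I), Ifih1 (MDA5) and Dhx58 (LGP2) recognize viral RNA in the cytoplasm, and Trim25 ubiquitinates RIG-I. Dhx58 was at 2.38, 2.68, 3.06 and 2.23 CPM in the controls and at 2.10, 1.75, 1.62 and 2.27 CPM in the KD mice. The KD mouse M909 lay above the control M898, so that the groups overlapped. Dhx58 had a log2 fold change of −0.42 ± 0.14 (edgeR quasi-likelihood adjusted p = 0.277). Exons of Dhx58 overlap those of Dhx58os on the opposite strand, and the strand setting of the counting was not given in the sources used here. Ddx58 had a log2 fold change of −0.49 ± 0.17 (adjusted p = 0.284), Ifih1 of −0.37 ± 0.18 (adjusted p = 0.416) and Trim25 of −0.07 ± 0.06 (adjusted p = 0.609).

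Of the 3 transcription factors, Irf7 was lower at an unadjusted p below 0.01, while Stat2 and Irf9, subunits of ISGF3, did not reach 0.05. Irf7, which amplifies the type I response and is itself a strongly inducible gene, was at 17.7, 17.8, 25.0 and 22.7 CPM in the controls and at 14.7, 11.6, 15.4 and 15.5 CPM in the KD mice. Every KD mouse lay below every control, and the lowest was M901. The log2 fold change of Irf7 was −0.54 ± 0.13 (edgeR quasi-likelihood adjusted p = 0.176), and it was −0.44 without M896, −0.46 without M901 and M902 and −0.36 without all 3. Exons of Irf7 overlap those of Phrf1 on the opposite strand. Irf9 had a log2 fold change of −0.17 ± 0.12 (adjusted p = 0.573). Stat2 was at 50.4 to 58.5 CPM in the controls and at 51.2 to 58.9 CPM in the KD mice, a log2 fold change of 0.0030 ± 0.0622 whose sign turned under several alternatives.

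Parp9 and Dtx3l form a complex that modifies histones and viral proteins, and Parp14 is a related ADP-ribosyltransferase. Parp14 was at 9.48, 11.2, 16.9 and 8.78 CPM in the controls and at 8.08, 6.87, 7.10 and 9.20 CPM in the KD mice. M909 lay above the control M898, and M896 was the highest. Parp14 had a log2 fold change of −0.57 ± 0.19 (edgeR quasi-likelihood adjusted p = 0.273), −0.33 without M896 and −0.43 without M901 and M902. Parp9 (log2 fold change −0.41 ± 0.17, adjusted p = 0.350) and Dtx3l (−0.33 ± 0.13, adjusted p = 0.316) share overlapping exons on opposite strands, so that their counts may not be independent.

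The guanylate-binding proteins and the immunity-related GTPases attack the vacuoles of intracellular pathogens and respond mainly to interferon gamma. Gbp7 was at 7.41, 8.30, 11.6 and 7.55 CPM in the controls and at 7.05, 6.46, 6.09 and 7.35 CPM in the KD mice. The groups did not overlap, but M833 and M909 were close. Gbp7 had a log2 fold change of −0.37 ± 0.14 (edgeR quasi-likelihood adjusted p = 0.310), and −0.20 without M896. Gbp2 (log2 fold change −0.66 ± 0.26) and Irgm1 (−0.49 ± 0.19) were also lower at an unadjusted p below 0.05, while Igtp (−0.41 ± 0.19) and Gbp3 (−0.47 ± 0.26) did not reach it. Gbp3 was at 7.83 CPM in M896 and at 3.52 to 3.83 CPM in the other controls.

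The genes of class I antigen presentation included the most abundant members, and 6 of the 7 were lower at an unadjusted p below 0.05. B2m, the light chain of class I molecules, was at 31.8, 39.0, 39.6 and 45.2 CPM in the controls and at 30.6, 28.5, 28.5 and 31.0 CPM in the KD mice. Every KD mouse lay below every control, and the highest mouse was M898 and not M896. The log2 fold change of B2m was −0.39 ± 0.09 (edgeR quasi-likelihood adjusted p = 0.169). It was −0.38 without M896, −0.34 without M901 and M902 and −0.32 without all 3. Without M833, the control with the lowest B2m, the edgeR quasi-likelihood adjusted p of B2m was 0.0321.

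H2-K1, a class I heavy chain, was at 47.3, 50.4, 49.1 and 48.4 CPM in the controls and at 44.4, 43.8, 43.5 and 47.0 CPM in the KD mice. The groups did not overlap, though M833 and M909 differed little. The log2 fold change of H2-K1 was small, −0.13 ± 0.04 (edgeR quasi-likelihood adjusted p = 0.253). The other heavy chain, H2-D1, was at 36.8 to 40.5 CPM in the controls and at 37.7 to 41.0 CPM in the KD mice, with a log2 fold change of 0.016 ± 0.044 (adjusted p = 0.907).

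Tap1, a subunit of the transporter that loads peptides for class I molecules, was at 5.96, 7.01, 8.76 and 6.64 CPM in the controls and at 5.59, 4.63, 4.07 and 5.73 CPM in the KD mice. All KD mice lay below all controls, with M909 closest. Tap1 had a log2 fold change of −0.50 ± 0.14 (edgeR quasi-likelihood adjusted p = 0.221), and −0.39 without M896. The immunoproteasome subunits Psmb8 (log2 fold change −0.36 ± 0.15), Psmb9 (−0.55 ± 0.22) and Psmb10 (−0.22 ± 0.09) were lower at an unadjusted p below 0.05 as well. Tap1 and Psmb9 overlap in exons on opposite strands.

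**Figure D4:**
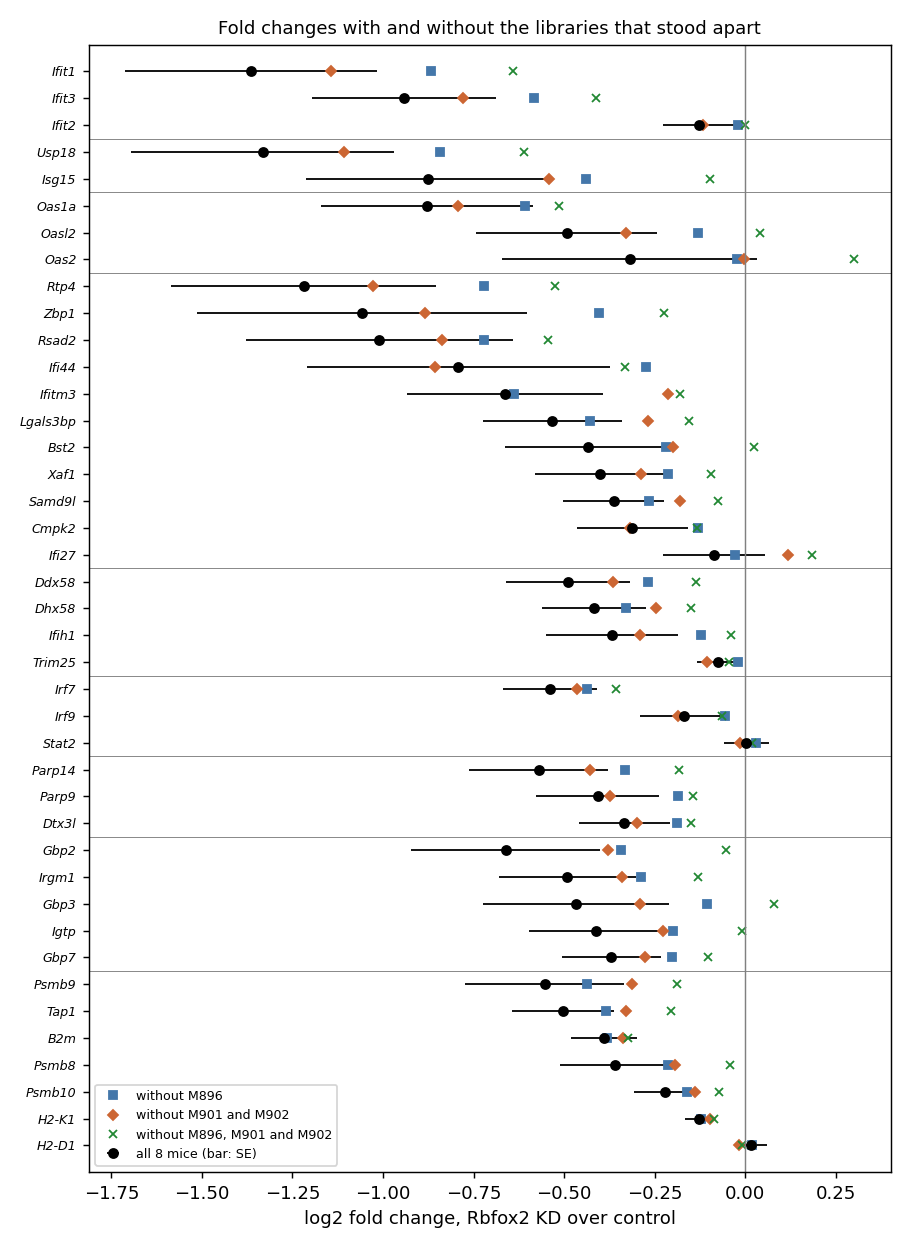
Each row is a member, with the log2 fold change of Rbfox2 KD over control from all 8 mice in black (bar: SE) and from the fits without the named libraries in color. With all mice 39 of 41 points lie left of 0, and the points move toward 0 without M896, M901 and M902, where 35 lie left of 0.

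Members with an exact core of the response element in the promoter window and members without an exact core were both lower in most cases. Of the 16 with it, 11 were lower at an unadjusted p below 0.05 and the median log2 fold change was −0.49. Of the 17 without it, 10 were lower and the median was −0.36. The groups of mice did not overlap for 5 of the 16 and 3 of the 17. With 1 mismatch allowed, 16 of 26 with it and 5 of 7 without it were lower, with medians of −0.45 and −0.31. The groups of mice then did not overlap for 5 of the 26 and 3 of the 7. For the gamma-activated site, 4 of 7 with it and 17 of 26 without it were lower, with medians of −0.41 and −0.48. No test was made of these differences.

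The levels of the members covered a wide range. By the deposited FPKM, which divide by gene length, B2m was the most abundant (45.7 ± 7.0 in controls, SD, n = 4), followed by H2-K1 (29.8 ± 1.11) and H2-D1 (22.6 ± 1.22). Ifitm3, Lgals3bp, Stat2, Ifi27 and Irf7 came next, at control means of 11.9 to 13.3 FPKM, and neighbors among these 5 did not differ beyond their spread between mice. Of the 41 members, 36 had a control mean of 1 FPKM or more. The lowest were Oas2 (0.0811), Ifi44 (0.118), Zbp1 (0.137) and Oas1a (0.162).

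Other interferon-stimulated genes, from a longer list of 120 that shares no gene with the members, were also lower on the whole. Of 101 tested, 31 were lower and 2 higher (Plac8 and Tdrd7) at an unadjusted p below 0.05, against 6.87% and 6.42% of all genes. In 84 of them the fold change was below 0, and the median log2 fold change was −0.35. Without M896 16 were lower (15.8%, against 5.2% of all genes), and without M901 and M902 7 of 104 tested were (6.73%, against 2.46%). Without all 3 libraries 1 was lower (0.99%), which is below the 1.53% of all genes. M896 was the highest mouse in 48 of the 101. Plac8 was at 0.542 CPM in M909 and at 0.0452 to 0.151 CPM in the other mice. No gene had an edgeR quasi-likelihood adjusted p below 0.05, while DESeq2 called 9 of the 101 lower, against 1.36% of all genes.

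Those with an unadjusted p below 0.01 were Trim56, Parp12, Helz2, Gbp5, Mx2, Slfn5, Eif2ak2, Ifi30 and Apol9b. Trim56, a ubiquitin ligase of the DNA-sensing pathway, was at 5.40, 6.48, 5.89 and 5.94 CPM in the controls and at 4.97, 4.15, 3.85 and 4.51 CPM in the KD mice. Its groups did not overlap and M896 was not the highest. Its log2 fold change was −0.44 ± 0.10 (edgeR quasi-likelihood adjusted p = 0.144), and −0.44 without M896. Mx2, of the family of dynamin-like Mx GTPases, had the largest fold change of these 9, −1.27 ± 0.37, with overlapping groups. Eif2ak2, the kinase PKR that halts translation, had −0.61 ± 0.18. Gbp6, Psme1, H2-Q4 and Sp110 had non-overlapping groups too, with log2 fold changes from −0.63 to −0.17. Tdrd7, which was the only gene of this list with all KD mice above all controls, had a log2 fold change of 0.09 ± 0.04.

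Few of the genes upstream of the response differed among those outside the member list. The members Irf7, Stat2, Irf9, Zbp1 and the RNA sensors are described above and are not counted here. Over all genes, 6.87% were lower and 6.42% higher at an unadjusted p below 0.05. Of 6 interferon receptor genes, 0 had p below 0.05. Ifnar1 had a log2 fold change of 0.042 ± 0.036 (adjusted p = 0.641) and Ifnar2 of −0.12 ± 0.08 (adjusted p = 0.544). Of 10 genes of the JAK-STAT and IRF step, 1 (10%) was lower at that threshold, Irf8 (log2 fold change −0.30 ± 0.13). Jak2, the kinase of the interferon gamma receptor, had non-overlapping groups, as did 3.39% of all genes in this direction. Its log2 fold change was only −0.06 ± 0.03. Among 12 nucleic acid sensing genes, 1 (8.33%) was higher at that threshold, Mavs, the adaptor of the RNA sensors (log2 fold change 0.10 ± 0.04). Irf8, Mavs and Socs1 are named after their values were seen.

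Of 13 negative regulators, 1 was lower and 1 higher at an unadjusted p below 0.05. These shares, 7.69% each, were near the 6.87% and 6.42% of all genes. Socs1, which inhibits the Jak kinases, had a log2 fold change of −0.51 ± 0.21. Ptpn2, a phosphatase of Jak and Stat proteins, was at 60.6, 56.9, 53.9 and 49.9 CPM in the controls and at 63.7, 67.3, 80.5 and 61.1 CPM in the KD mice. Every KD mouse lay above every control, and M902 was the highest. The log2 fold change of Ptpn2 was 0.30 ± 0.09 (edgeR quasi-likelihood adjusted p = 0.233), and 0.17 without M901 and M902. The 21 interferon ligand genes were not analysed here.

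Markers of cell types that respond to interferon moved in part with the members. Of 12 microglia markers, 11 had fold changes below 0, with a median log2 fold change of −0.15, and without M901 and M902 6 of 12 were below 0. At an unadjusted p below 0.05, 1 of the 12 (C1qb, 8.33%) was lower, near the 6.87% of all genes. Of 10 endothelial markers, 9 had fold changes below 0, with a median log2 fold change of −0.25. At that threshold 4 of the 10 (40%) were lower (Pecam1, Tie1, Flt1 and Ly6c1). Of 6 pericyte markers, 5 had fold changes below 0 and 2 (33.3%) were lower, with a median of −0.32. Of 10 Müller glia and astrocyte markers, 7 had fold changes below 0 and 2 (20%) were lower. The pericyte sum was 50.4 to 64.2 CPM in the controls and lowest in M901 and M902, at 45.4 and 40.5 CPM. Of 12 markers of the pigment epithelium and ciliary body, 11 had fold changes below 0 and 4 (33.3%) were lower. Their median was −0.90, and −0.08 without M901 and M902. Their sum varied widely among the controls, from 149 to 525 CPM. Of 9 photoreceptor markers, 1 (11.1%) was lower and 4 (44.4%) were higher, against 6.87% and 6.42% of all genes. Of 11 markers of ganglion, amacrine and horizontal cells, 6 had fold changes below 0, with a median of −0.048. At that threshold 0 of the 11 were lower and 1 (9.09%) was higher. Of 5 lens and surface epithelium markers tested, 0 had fold changes below 0 and 3 (60%) were higher, with a median of 2.40. Their sum was highest in M909. The 7 leukocyte markers tested of 15 summed to 4.45 to 5.71 CPM in the controls and 4.66 to 5.59 CPM in the KD mice, and 0 had p below 0.05. M896, the mouse with the highest members, had the lowest microglia sum of the controls, at 79.0 CPM. Its pericyte sum, 50.4 CPM, was also the lowest of the controls. So was its endothelial sum, 382 CPM, although the other controls were close, at 386 to 395 CPM. The leukocyte sum of M896 was 5.09 CPM, inside the range of the other controls. The part of cell makeup in the lower members was not tested.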

How the data were processed

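Retinal RNA of 8 mice was sequenced, 1 library each. The authors used STAR for alignment to mm10 and HTSeq for counting, from reads that mapped to a unique place. The labels also name CASAVA 1.8.2 and edgeR, and the strand setting of the counting was not given in the sources used here. The deposited counts per gene are raw, and the deposited FPKM were used only to compare levels between genes. The deposited table also holds the authors' normalized values, fold changes and p-values of their own comparisons, which were not used.

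Counts were filtered with filterByExpr, scaled by TMM and compared by the quasi-likelihood F test of edgeR 4.0.16 (R 4.3.3), 4 Rbfox2 KD against 4 control mice without covariates, with Benjamini-Hochberg adjustment over 16797 genes. Standard errors were derived from the F statistics. CPM use the TMM-scaled library sizes. Alternatives were upper quartile normalization, size factors of DESeq2 in edgeR, DESeq2 1.42.0, limma-voom (limma 3.58.1), no filter, at least 10 counts in every mouse, leaving out each mouse, leaving out M901 and M902, and score pseudocounts of 0.1 and 5 CPM. The fits were tested on simulated data.

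The members and all gene lists were chosen with earlier results of these data known. Values of every mouse are given for members with an unadjusted p below 0.01, with groups that do not overlap, or with the lowest p of their role group. Other pathway genes are named at p below 0.01 or when groups do not overlap, with Ifnar1 and Ifnar2 in any case, and 1 further gene that the rule names is not reported here. Gene positions and exon overlaps come from GENCODE M21 (GRCm38), promoters from RefSeq. No libraries agreed within sampling noise. Total counts were 160630226 to 211283591 per mouse.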

Additional observations from a re-analysis of the deposited data

Results flagged for a closer look

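Within each group of 4 mice, the gap between the most extreme mouse and its neighbor was divided by the range of the group, for the 41 members and the score. Of 84 groups examined, 10 passed the 95% critical value of Dixon's test, where chance gives about 1 in 20 groups (4.2 of 84), and members that vary together are not independent. In 8 of the 10, the extreme mouse was the control M896, which was the highest. The ratio of gap to range was 0.865 for Ifit2 (17.3 CPM in M896), 0.926 for Isg15 (3.43 CPM), 0.879 for Oas1a (0.460 CPM), 0.896 for Oasl2 (35.1 CPM), 0.863 for Ddx58 (15.8 CPM), 0.972 for Ifih1 (13.1 CPM), 0.891 for Gbp2 (9.42 CPM) and 0.928 for Gbp3 (7.83 CPM). In the other two, the extreme mouse was the Rbfox2 KD mouse M909, the highest of its group, with a ratio of 0.852 for Ifih1 (8.12 CPM) and 0.859 for Psmb9 (1.72 CPM). The score over all members did not pass in either group.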

How the results depend on the processing

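No paired analysis was made, because each library came from a different animal and the labels give no pairs between the genotypes. The lower direction of the list held under every alternative, in the median fold change and in the score, while the number of members past a threshold depended on 3 libraries. The number called at an adjusted p below 0.05 was 0 by edgeR, 6 by DESeq2, and 0 to 1 when each mouse was left out. At an unadjusted p below 0.05 the 27 lower members became 5 without M901 and M902, 4 without M896, M901 and M902, and 11 to 30 without each mouse in turn, the lowest without M896 and 13 without M901 or without M902. At p below 0.01 the 8 lower members became 15 by DESeq2 (3.33% of all genes, against 1.93% by edgeR), 5 by limma-voom (1.91%), 0 without M901 and M902, 0 without all 3 libraries, and 3 to 14 without each mouse. Members with non-overlapping groups numbered 10 to 21 without each mouse, while the share of all genes, 3.39% with 8 mice, was 4.25% without M896 and 7.24% without M909, which gave the 21. The median log2 fold change was −0.13 without all 3 libraries and −0.53 to −0.26 without each mouse, and the score difference was −0.11 without all 3 and −0.41 to −0.22 without each mouse. Of the further interferon-stimulated genes, 7 were lower without M901 and M902, 1 without all 3, and 16 to 46 without each mouse. With 1 mismatch allowed, 26 of 33 members held the promoter letters.

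The fold changes of 34 members had the same sign under every alternative. Without M896, M901 and M902 the sign turned for Oas2 (0.30), Oasl2 (0.040), Bst2 (0.023), Gbp3 (0.079), Ifi27 (0.18) and H2-D1 (−0.0082). Without M901 and M902 it turned for Ifi27 (0.12), Stat2 (−0.013) and H2-D1 (−0.016), and with upper quartile normalization for Stat2 (−0.0042). Without each mouse in turn Stat2 ranged from −0.040 to 0.041 and H2-D1 from −0.014 to 0.039. The cause of these changes was not tested.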
